A study of Mus musculus with 37 samples.

Results

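The acyl-CoA thioesterases are enzymes that split a fatty acyl-CoA into a free fatty acid and coenzyme A (CoA). The 10 genes described here are Acot1, Acot2, Acot3, Acot4, Acot5, Acot7, Acot8, Acot9, Acot12 and Acot13, picked by gene symbol from the 21450 genes of a TempO-Seq table of mouse liver. They are read by 13 of its 30146 probes. Enough counts for a test were present on 11 of these probes, which cover 8 of the 10 genes, and Acot5 and Acot8 did not pass.

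The livers came from wild-type CD1 mice (Crl:CD1(ICR)), an outbred stock, given HFPO-DA, the ammonium salt of hexafluoropropylene oxide dimer acid, a perfluorinated ether used in making polymers. It was given daily by gavage in deionized water, at 5, 0.5 or 0.1 mg per kg of body weight, and controls received the water (vehicle). Males received 84 to 85 doses, from 70 days before mating to the end of a 14-day mating period. Females received 53 to 65 doses, from 14 days before mating to lactation day 20 or 21. From vehicle to the top dose the groups held 5, 5, 5 and 4 males and 5, 5, 4 and 4 females, 37 of 40 planned mice. Males were about 6 weeks old at the first dose and females about 11 weeks. Sex, age, lactation and number of doses therefore differ together and cannot be told apart. Each value comes from a scraped section of fixed liver, in which fewer cells of a type and less RNA per cell cannot be told apart.

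The thioesterases set the balance between bound and free fatty acids inside each compartment of the cell, against the acyl-CoA synthetases that join fatty acids to CoA. The type I enzymes share an α/β-hydrolase fold and close sequences. Acot1 is cytosolic, Acot2 mitochondrial, and Acot3, Acot4 and Acot5 peroxisomal. The type II enzymes have a hotdog fold and little sequence in common. Acot7 and the acetyl-CoA hydrolase Acot12 are cytosolic, Acot8 is peroxisomal, and Acot9 and Acot13 are mitochondrial. In rodent liver several of them are known targets of PPARα, the nuclear receptor that fatty acids and peroxisome proliferators activate.

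The 5 type I members stand side by side on chromosome 12. Together with Acot6, which was not among the members, they span chr12:83987861-84111349 (GRCm38, mouse release 21 of GENCODE), all on the plus strand in the order Acot2, Acot1, Acot4, Acot3, Acot5, Acot6. The type II members lie apart, with Acot13 and Acot12 on chromosome 13, Acot8 on chromosome 2, Acot7 on chromosome 4 and Acot9 on chromosome X. The coding sequences of Acot1 and Acot2 were identical at 95.3% of 1236 aligned bases. Acot3 and Acot5 were identical at 85.8%, Acot1 and Acot3 at 85.0%, and Acot1 and Acot4 at 77.4%.

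**Figure D1:**
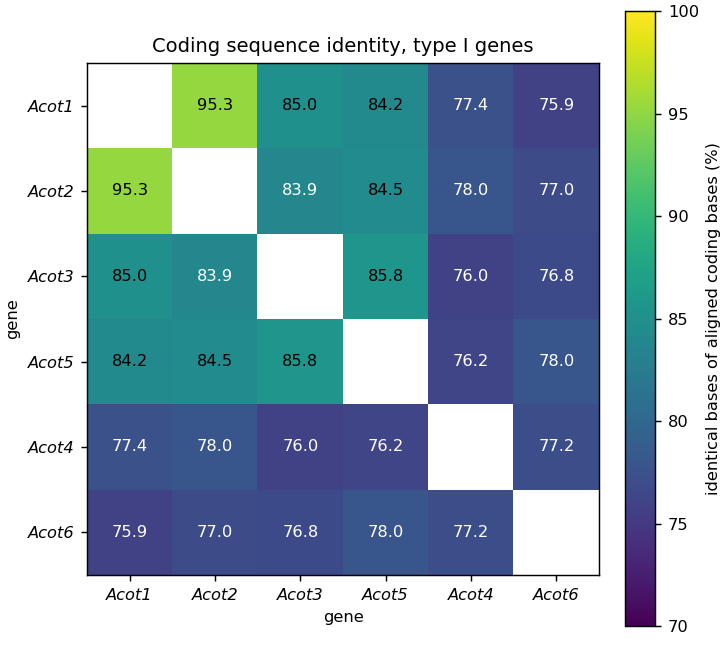
Percent of aligned coding bases that are identical between each pair of the 6 type I genes, from GENCODE transcripts. The pair of Acot1 and Acot2 stands highest at 95.3%, and pairs with Acot4 or Acot6 lie between 75.9% and 78.0%.

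Exact runs of 50 bases found also in another thioesterase of the cluster made up 32.1% of the runs in the Acot1 transcript and 27.6% in that of Acot2, mostly shared with each other. The share was 22.8% in Acot5, 7.69% in Acot3 and 4.49% in Acot4, and 0 in each type II member. The probe sequences were not used here, so whether a probe reads 1 gene alone was not tested. The values of Acot1, Acot2, Acot3, Acot4 and Acot5 carry that limit.

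RefSeq promoter windows (GRCm38.p6) were matched for 9 of the 10 members, all but Acot13. The windows below are shown for the type I genes that rose (Acot1, Acot2 and Acot3) and for Acot4 and Acot12, which were picked because they hold the motif described next and which did not pass the test against vehicle. Each holds the 250 bases before the start site on the plus strand, and capitals mark the letters CCAAT, the hexamer AGGTCA, and 2 such hexamers with 1 base between (AGGTCANAGGTCA, called DR1, with at most 2 differences), on either strand. A DR1 is the arrangement that PPARα is known to bind with its partner RXR.
Acot1 (chr12:84009252-84009501): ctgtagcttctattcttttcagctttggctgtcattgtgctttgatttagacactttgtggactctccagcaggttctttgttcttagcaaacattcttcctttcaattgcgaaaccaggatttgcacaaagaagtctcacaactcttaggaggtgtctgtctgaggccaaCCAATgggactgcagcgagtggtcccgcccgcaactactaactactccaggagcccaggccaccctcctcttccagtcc
Acot2 (chr12:83987611-83987860): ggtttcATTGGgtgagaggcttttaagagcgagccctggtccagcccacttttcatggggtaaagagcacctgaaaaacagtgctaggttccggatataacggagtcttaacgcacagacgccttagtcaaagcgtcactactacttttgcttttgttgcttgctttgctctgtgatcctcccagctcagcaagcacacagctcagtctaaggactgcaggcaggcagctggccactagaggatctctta
Acot3 (chr12:84051894-84052143): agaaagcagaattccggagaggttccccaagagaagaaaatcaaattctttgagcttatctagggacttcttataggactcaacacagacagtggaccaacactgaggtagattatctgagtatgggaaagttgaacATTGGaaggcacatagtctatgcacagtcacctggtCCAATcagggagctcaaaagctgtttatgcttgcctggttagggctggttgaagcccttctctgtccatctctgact
Acot4 (chr12:84038129-84038378): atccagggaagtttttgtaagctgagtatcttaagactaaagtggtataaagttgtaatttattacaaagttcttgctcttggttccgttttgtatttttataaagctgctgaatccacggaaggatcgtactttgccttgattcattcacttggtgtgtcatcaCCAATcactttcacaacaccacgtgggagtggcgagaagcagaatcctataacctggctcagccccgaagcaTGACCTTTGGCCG
Acot12 (chr13:91741271-91741520): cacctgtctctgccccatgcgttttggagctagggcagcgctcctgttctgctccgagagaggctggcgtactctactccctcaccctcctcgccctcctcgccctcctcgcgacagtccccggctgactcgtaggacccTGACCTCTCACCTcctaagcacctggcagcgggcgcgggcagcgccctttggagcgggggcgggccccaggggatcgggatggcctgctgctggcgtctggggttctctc

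AGGTCA occurred in 14.0% of all 32851 RefSeq windows of the same length. It was present in the windows of Acot4, Acot5 and Acot12 and in none of the other 6. These are Acot1 and Acot2, raised in both sexes, Acot3 and Acot7, raised in males, Acot9, not called, and Acot8, not tested. The Acot7 window, at chr4:152185358-152185607, lies inside the GENCODE gene, which begins at base 152178134. The printed windows of Acot1 and Acot12 run a few bases into their GENCODE genes, which begin at bases 84009490 and 91741512. A DR1 with at most 2 differences occurred in 3.24% of all windows, and among the members in Acot4, directly before the start site, and in Acot12, from base -110 to base -98. The match in Acot12 had 1 difference, which 0.484% of all windows reach. CCAAT occurred in 33.9% of all windows and, among those printed, in Acot1, Acot2, Acot3 and Acot4. These are matches of letters, each a description, in a reference genome of another strain, and no match says only that the letters are not in this window.

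Acot1 rose with dose in both sexes. Expression is given as CPM, a probe's count relative to the library size after TMM scaling, and a probe was called where edgeR's adjusted p was under 0.10. On the probe with most counts, the 5 control males had 69.3, 20.5, 45.3, 17.1 and 14.4 CPM and the 5 males at 0.5 mg/kg had 83.5, 96.2, 143, 351 and 150 CPM. The 4 males at 5 mg/kg had 883, 1086, 707 and 981 CPM. Each male at 0.5 mg/kg lay above each control, and each male at 5 mg/kg above each male at 0.5 mg/kg. The log2 fold change was 2.31 ± 0.43 (SE) at 0.5 mg/kg, with an adjusted p of 0.0025, and 4.78 ± 0.49 (SE) at 5 mg/kg, with an adjusted p of 1.7e-09.

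Acot1 in females took nearly the same levels. The control females had 32, 30.2, 47.8, 50.5 and 3.50 CPM, the females at 0.5 mg/kg 127, 227, 123 and 155 CPM, and the females at 5 mg/kg 831, 943, 1160 and 717 CPM. On this probe, the one with most counts, no dose group overlapped the next one from 0.1 mg/kg upward. In the fit, the log2 fold change was 2.27 ± 0.44 (SE) at 0.5 mg/kg (adjusted p = 0.0096) and 4.80 ± 0.49 (SE) at 5 mg/kg (adjusted p = 2.0e-09). The change at 5 mg/kg differed between females and males by 0.02 on the log2 scale, with a 95% confidence interval from -1.22 to 1.27, and this interval leaves room for a difference of over 2-fold either way.

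At 0.1 mg/kg, Acot1 lay at 60.5 ± 20.5 CPM (SD, n = 5) in males and 61.7 ± 26.2 CPM (SD, n = 5) in females, against 33.3 ± 23.6 and 32.8 ± 18.7 CPM (SD, n = 5 each) in controls. The groups overlapped in both sexes. The log2 fold change of 0.86 in males had an adjusted p of 0.68 in edgeR's test (unadjusted 0.045), and that of 0.91 in females an adjusted p of 1 (unadjusted 0.034). No gene of the table was called at this dose in either sex (0% of 18570 probes in males and 0% in females), in the edgeR fits. At an unadjusted p under 0.05 there were 3 of the 8 tested members among males, namely Acot1, the second probe of Acot3, which was higher, and the second probe of Acot9, which had no count in any male at this dose. This is 3 of 11 member probes, beside 7.14% of all probes. Among females Acot1 was the only one, on 2 of 11 probes, beside 2.38% of all probes.

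The second probe of Acot1 gave like changes at 0.5 and 5 mg/kg. Its log2 fold changes were 2.60 at 0.5 mg/kg in each sex, 5.10 at 5 mg/kg in males and 5.31 in females, and it was called in all 4 comparisons. At 0.1 mg/kg they were 0.38 in males and 1.04 in females, and neither was called. Females at 0.5 mg/kg overlapped those at 0.1 mg/kg on this probe. Both probes rose together over the mice, as the plot of probe pairs shows, with the first at 2.54 to 4.45 times the second in the mean of each group.

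**Figure D2:**
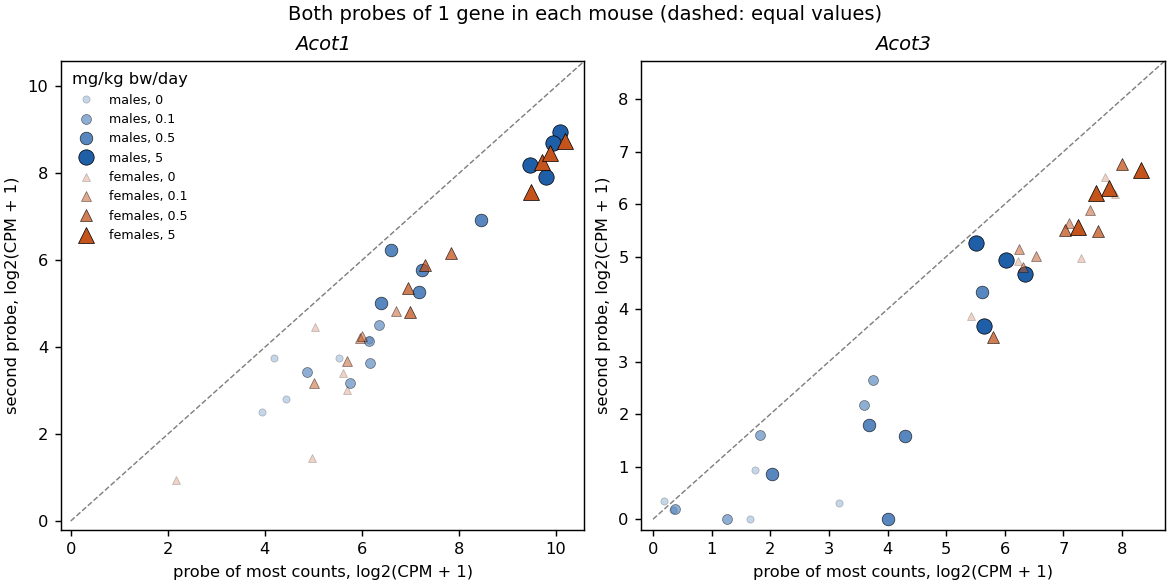
Each mouse's log2(CPM + 1) on the second probe (vertical axis) against the probe with most counts (horizontal axis) for Acot1 and Acot3, with males as circles and females as triangles, larger and darker at higher dose. For Acot1 both sexes at 5 mg/kg lie together at the upper end, and for Acot3 the females of every dose lie at the upper end and the males move toward them with dose.

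Acot2, the mitochondrial relative, rose at 5 mg/kg in both sexes from levels near the limit of detection. The control males had 1.32, 0.649, 3.75, 6.78 and 0 CPM and the males at 0.5 mg/kg 13.5, 14.0, 8.51, 18.3 and 10.4 CPM. The males at 5 mg/kg had 71.7, 132, 166 and 161 CPM. The groups did not overlap at either dose. Against vehicle, the log2 fold change was 2.37 ± 0.64 (SE) at 0.5 mg/kg, close to the threshold with an adjusted p of 0.097, and 5.72 ± 0.71 (SE) at 5 mg/kg, with an adjusted p of 1.5e-07.

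In females, Acot2 had 4.4, 2.05, 0, 4.03 and 3.50 CPM in controls, 5.90, 8.81, 3.04 and 8.39 CPM at 0.5 mg/kg, and 86.1, 84.9, 147 and 51.9 CPM at 5 mg/kg. The groups overlapped at 0.5 mg/kg and were far apart at 5 mg/kg. Against vehicle, the log2 fold change was 1.22 ± 0.64 (SE) at 0.5 mg/kg (adjusted p = 1) and 5.04 ± 0.68 (SE) at 5 mg/kg (adjusted p = 1.3e-06). At 5 mg/kg the change in females minus that in males was -0.68 on the log2 scale (95% confidence interval -2.48 to 1.13). The sex difference at 0.5 mg/kg was not tested.

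Acot3, a peroxisomal enzyme, rose in males from a low level and was high in females at every dose. The control males had 8.05, 2.34, 0.134, 0.266 and 2.13 CPM, the males at 0.5 mg/kg 3.06, 15.1, 11.8, 47.7 and 18.7 CPM, and the males at 5 mg/kg 49.1, 44.5, 79.9 and 63.8 CPM. The groups overlapped at 0.5 mg/kg, where 1 male lay among the controls, and did not at 5 mg/kg. In the fit, the log2 fold change was 2.89 ± 0.67 (SE; adjusted p = 0.031) at 0.5 mg/kg and 4.48 ± 0.71 (SE; adjusted p = 1.5e-05) at 5 mg/kg.

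The control females had 74.2, 234, 42.1, 209 and 156 CPM of Acot3 and the females at 5 mg/kg 218, 188, 318 and 151 CPM. These groups overlapped, and the log2 fold change of 0.61 ± 0.60 (SE) had an adjusted p of 0.91. The control females exceeded the control males by 5.76 ± 0.72 (SE) on the log2 scale (adjusted p = 2.4e-07), with no overlap. The log2 fold change at 5 mg/kg was smaller in females, with a difference (females minus males) of -3.87 ± 0.92 (SE; adjusted p = 0.040). In CPM, the mean went from 143 to 219 in females and from 2.58 to 59.3 in males, so the smaller change is one of ratio.

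Males of the top dose had a log2 fold change of 6.31 on the second probe of Acot3 (adjusted p = 4.4e-06), females one of 0.65 (adjusted p = 0.92), with a difference between them of -5.65 (adjusted p = 0.011). It lay at 0 to 0.908 CPM in control males, from 0 to 7 counts a mouse, and the 95% confidence interval of the male change was 4.43 to 8.18. In control females it lay at 13.7 to 91.0 CPM. Males at 5 mg/kg stayed below the mean of the control females on both probes, at 59.3 against 143 CPM on the first and 25.8 against 47.3 CPM on the second.

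**Figure D3:**
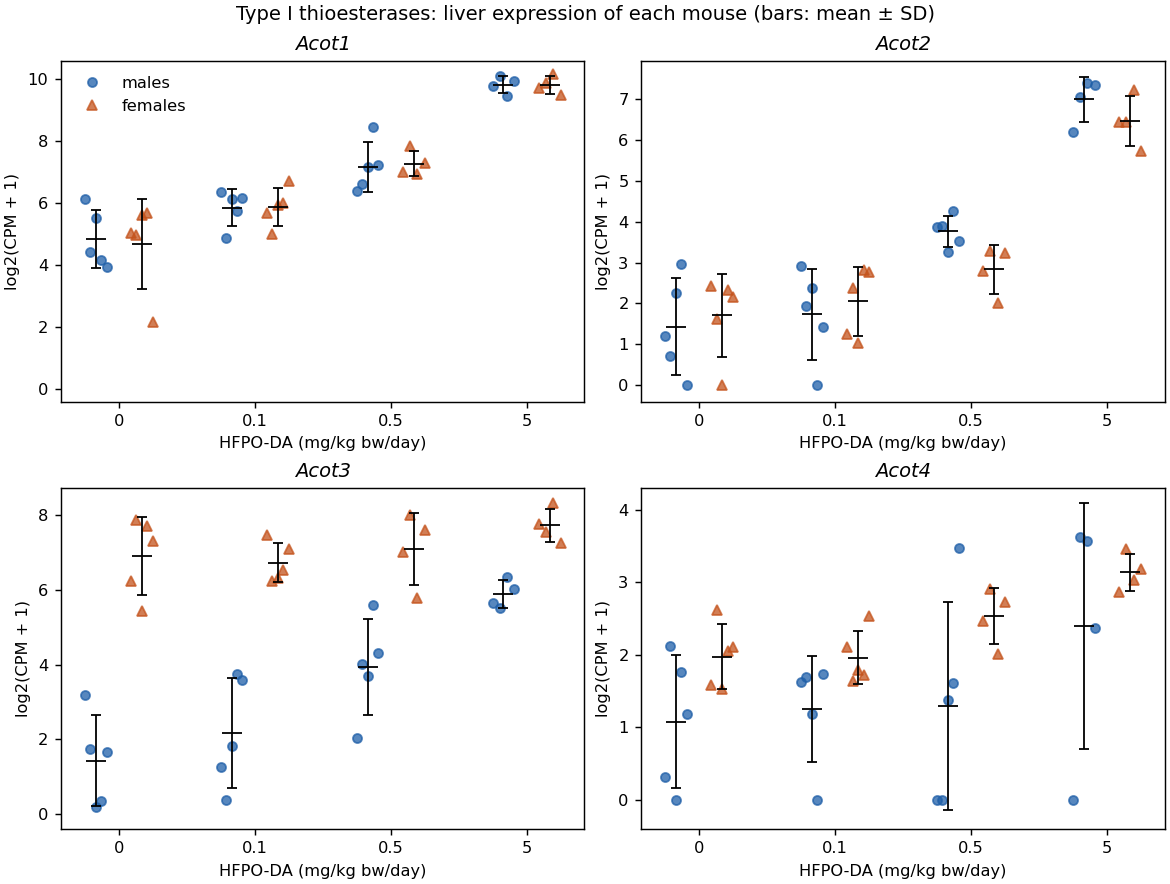
Liver expression of the 4 tested type I genes as log2(CPM + 1) by dose of HFPO-DA, with 1 circle per male, 1 triangle per female and the mean ± SD in black. Acot1 and Acot2 climb in both sexes to 5 mg/kg, Acot3 climbs in males below females that are high at every dose, and Acot4 shows wide spread in males.

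Acot4, a peroxisomal enzyme that acts on dicarboxylic acyl-CoAs, was not called at any dose. The control males had 0.240, 3.37, 0, 2.39 and 1.28 CPM and the males at 5 mg/kg 0, 11.4, 10.9 and 4.17 CPM. The control females had 1.99, 5.12, 1.87, 3.15 and 3.33 CPM and the females at 5 mg/kg 6.30, 10.0, 7.20 and 8.08 CPM. Each female at 5 mg/kg lay above each control female, while in males 1 treated mouse had no count. At 5 mg/kg the fitted log2 fold change for males was 2.169 ± 0.999 (SE; adjusted p = 0.18). For females it was 1.35 ± 0.96 (SE; adjusted p = 0.75), and with females fitted apart from males Acot4 was called in females (adjusted p = 0.028).

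Acot5 had 54 counts over all 37 mice. Of these, 27 came from 1 male at 5 mg/kg and 24 from 2 females at 5 mg/kg, and every control mouse of both sexes was at 0 counts. Its neighbour in sequence is Acot3, which shares 207 of its 1469 runs of 50 bases, and no test was made. Acot6, the other gene of the cluster, belongs to a list given below and was at or under 6.34 CPM on its probes in every mouse.

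Of the type II members, Acot7 rose in males at 5 mg/kg. Acot7 is a cytosolic thioesterase best known from brain. The control males had 24.7, 26.9, 14.4, 26.8 and 22 CPM and the males at 5 mg/kg 40.1, 50.3, 48.0 and 43.6 CPM, with no overlap. It had a log2 fold change of 0.98 ± 0.24 (SE; adjusted p = 0.0059), against 0.18 ± 0.23 (SE; adjusted p = 0.93) at the middle dose and 0.11 at the lowest.

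Female controls had 31.9, 25.2, 25.4, 26.8 and 20.3 CPM of Acot7 and females of the top dose 28.5, 30.6, 39.7 and 29.6 CPM, and the groups overlapped. Its log2 fold change was 0.31 ± 0.24 (SE; adjusted p = 0.81). The female change minus the male change was -0.68 (95% confidence interval -1.37 to 0.02; adjusted p = 0.48), so a difference between the sexes was not shown for Acot7.

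Acot12, which hydrolyses acetyl-CoA in the cytosol, was well measured and not called against vehicle. It had 183 ± 53.0 CPM (SD, n = 5) in control males, 251 ± 46.0 CPM (SD, n = 4) in males of the top dose, 216 ± 29.9 CPM (SD, n = 5) in control females and 281 ± 31 CPM (SD, n = 4) in their treated group. Treated and control mice overlapped in both sexes. Males of the top dose had a log2 fold change of 0.45 (95% confidence interval 0.03 to 0.87; adjusted p = 0.18), and females one of 0.38 (-0.04 to 0.80; adjusted p = 0.51). The middle dose gave 0.24 and -0.16, and the lowest -0.19 and -0.01. These intervals leave room for a rise but not for one of 2-fold.

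Acot13, a mitochondrial thioesterase also known as Them2, was not called at any dose, and its log2 fold change at the top dose was 0.43 for males (adjusted p = 0.33) and 0.33 for females (adjusted p = 0.80). These values were 0.22 and 0.16 for the middle dose, and -0.21 and 0.08 for the lowest. It differed between the controls. The control females had 69.9, 69.7, 71.2, 63.7 and 60.6 CPM and the control males 43.4, 33.5, 22.2, 44.3 and 47.0 CPM, with no overlap and a difference of 0.82 ± 0.24 (SE; adjusted p = 0.078). Of 10 fits that each left out 1 control mouse, 3 kept this call. Acot3 and Acot13 were the members higher in control females, where 1.36% of the probes tested were called in that direction.

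Acot9, a mitochondrial enzyme of the hotdog family, lay between 0 and 5.99 CPM on its first probe over all mice. It gave no call, and its confidence intervals at 5 mg/kg, from -1.86 to 3.38 in males and -2.36 to 2.65 in females, span changes of several-fold in both directions. Acot8, a peroxisomal enzyme of broad substrate range, had 7 counts, all in 1 female at 5 mg/kg, and no count in the other mice.

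**Figure D4:**
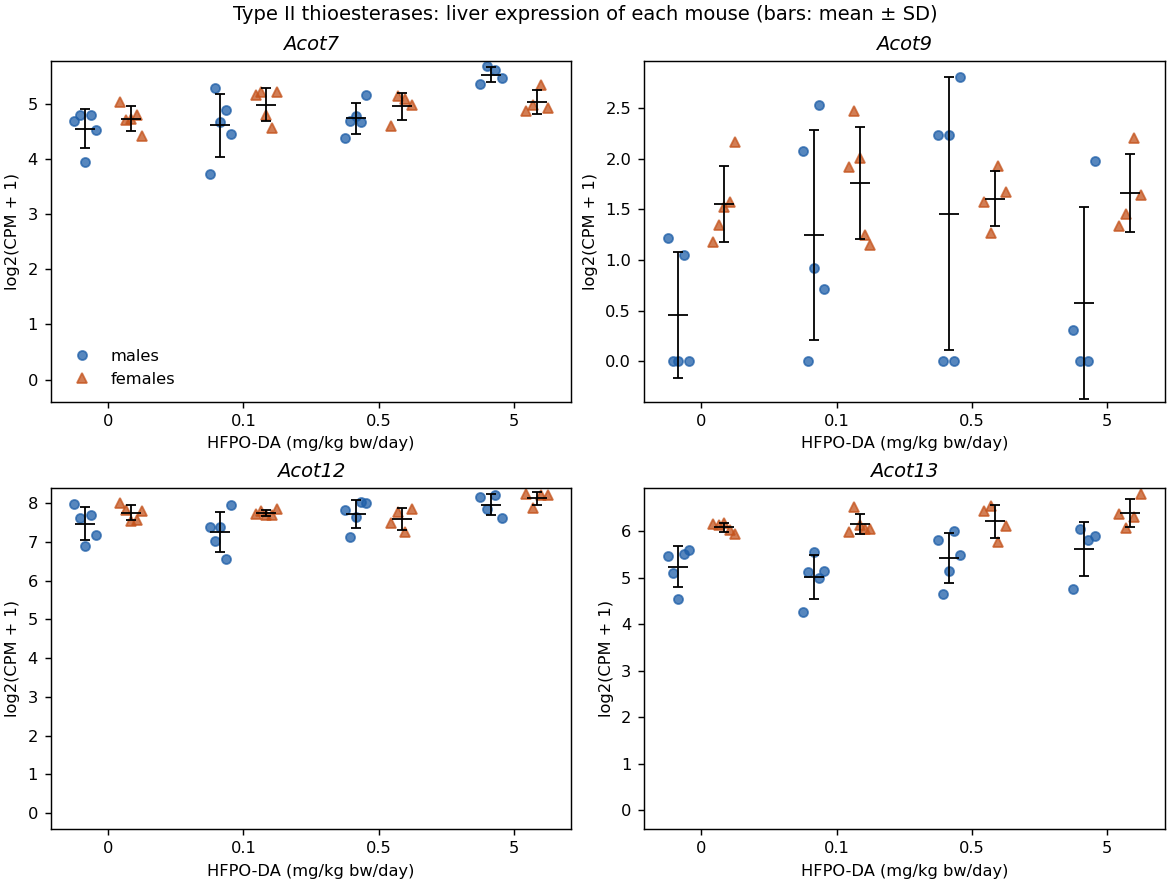
Liver expression of the 4 tested type II genes as log2(CPM + 1) by dose of HFPO-DA, with 1 circle per male, 1 triangle per female and the mean ± SD in black. Acot7 is higher in the 4 males at 5 mg/kg than in every control male, Acot13 is higher in control females than in control males, and Acot9 is at or near 0 in many males.

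At 0.5 mg/kg, 3 of the 8 tested genes were raised in males (Acot1, Acot2 and Acot3, on 5 of 11 probes), where 0.382% of all probes tested were raised. In females it was Acot1, on 2 of 11 probes, against 0.108%. At 5 mg/kg, males had 4 raised genes (Acot1, Acot2, Acot3 and Acot7, on 6 probes) against 4.21% of all probes, and females had 2 (Acot1 and Acot2, on 3 probes) against 2.26%. No member was lowered in any comparison with vehicle. The median log2 fold change of the 11 member probes at 5 mg/kg was 2.169 for males and 0.61 for females, beside -0.12 and -0.01 over all probes tested.

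Counted by mice, each treated mouse lay above each control for Acot1 and Acot2 in males at 0.5 mg/kg and for Acot1 in females, where this held for 0.652% and 1.52% of all probes tested. At 5 mg/kg it held for Acot1, Acot2, Acot3 and Acot7 in males and for Acot1, Acot2 and Acot4 in females, beside 2.78% and 4.4% of all probes.

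**Figure D5:**
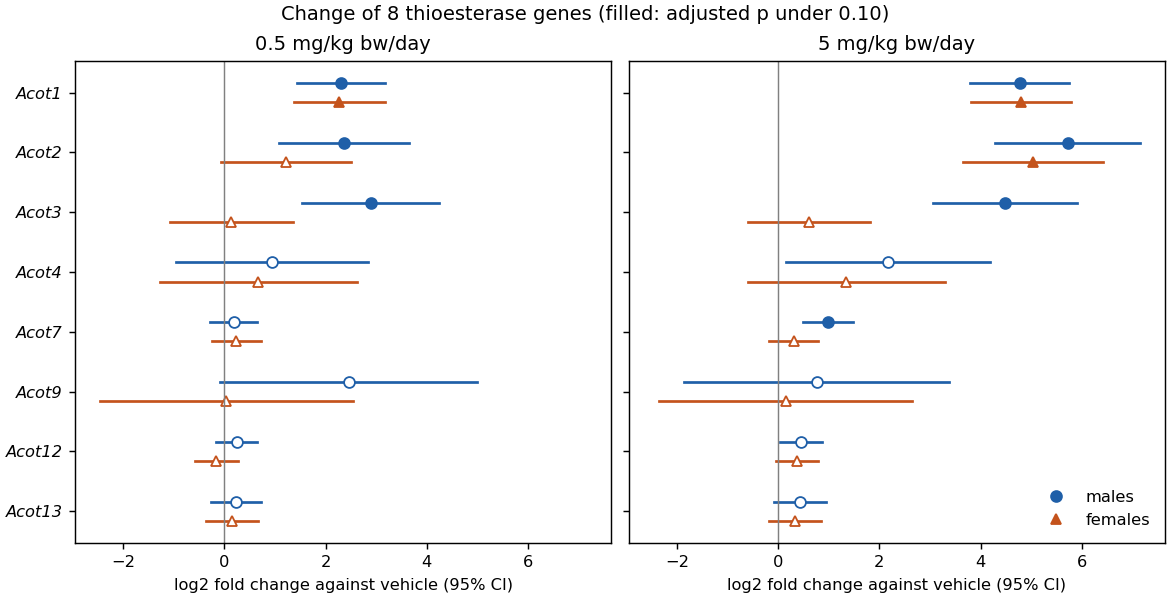
Log2 fold change against vehicle with its 95% confidence interval for the 8 tested genes, at 0.5 mg/kg (left) and 5 mg/kg (right), with males as circles and females as triangles, filled where the adjusted p was under 0.10. Acot1 is filled in both sexes at both doses, Acot2 in males at both doses and in females at 5 mg/kg, Acot3 in males at both doses and Acot7 in males at 5 mg/kg.

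The step from 0.5 to 5 mg/kg was tested by itself. In males, Acot1 rose by 2.47 on the log2 scale (adjusted p = 0.00031), Acot2 by 3.36 (adjusted p = 0.00061) and Acot7 by 0.80 (adjusted p = 0.043), and Acot3 was called on its second probe alone (2.28, adjusted p = 0.045, against 1.60 and 0.12 on the first). In females, Acot1 rose by 2.53 (adjusted p = 0.0015) and Acot2 by 3.83 (adjusted p = 0.0010). Over all probes, 3.16% in males and 0.635% in females rose in this step.

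The members differed in how much of the change at 5 mg/kg was already present at 0.5 mg/kg. On the log2 scale this share was 48.3% in males and 47.3% in females for Acot1, 41.3% and 24.1% for Acot2, 64.4% in males for Acot3 and 18.7% in males for Acot7. These shares are descriptions of fitted values and were not tested against each other. At 5 mg/kg the log2 fold change was smaller in females than in males for 0.167% of the probes tested, and among the members for Acot3.

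The male at 0.5 mg/kg numbered 4 had the highest value of its group for Acot1, Acot2 and Acot3. Without this mouse, Acot1 alone was called at that dose, and Acot3 had a log2 fold change of 2.20 (adjusted p = 0.21). Acot2 at 0.5 mg/kg in males lost its call in 12 of 20 other settings. In males at 5 mg/kg, Acot1, Acot2, Acot3 and Acot7 were called in each of the 9 fits that left out 1 mouse. Acot1 and Acot2 in females at 5 mg/kg, and the sex difference of Acot3, held in each such fit as well.

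Total counts ran from 2101495 to 10548222 in males and from 7952605 to 13878254 in females, and the 4 mice of lowest total were males. Without these 4, the members called against vehicle in males were those named above, and the step from 0.5 to 5 mg/kg lost Acot7. At 5 mg/kg, 4 of 7 hepatocyte markers were lowered in males and 1 of 7 in females, beside 8.49% and 2.26% of all probes. The summed hepatocyte markers lay at 13706 to 17919 CPM in males at 5 mg/kg, against 19190 to 30653 CPM in control males, and their part in the results was not tested. Of the tested markers of Kupffer, endothelial, stellate, bile duct, lymphoid and muscle cells, none was raised at 0.5 or 5 mg/kg against vehicle. In males, 1 endothelial marker was lowered at 5 mg/kg, and 1 of 4 lymphoid markers was raised from 0.5 to 5 mg/kg. No fat cell marker had enough counts for a test, and their sum was at 0 CPM in every male at 5 mg/kg. The summed stellate cell markers lay at 260 to 360 CPM in males at 5 mg/kg and 149 to 340 CPM in control males, which was not tested as a sum.

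Among 5592 genes of at least 10 CPM, those with the 6 log2 fold changes nearest to Acot1 were Cyp4a31, Ehhadh and Cpt1b, at root mean square distances of 0.43, 0.50 and 0.83. For Acot2 they were Cpt1b, Ehhadh and Cyp4a31, at 0.51, 0.56 and 0.86. Cyp4a31 encodes a fatty acid ω-hydroxylase, Ehhadh the peroxisomal bifunctional enzyme and Cpt1b a carnitine palmitoyltransferase. At the top dose Ehhadh was raised by 5.51 (males) and 5.03 (females) on the log2 scale.

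In a list of other thioesterases and relatives of the type I family, which also held the lipase Abhd6, 10 genes were tested. Of these, 1 was raised in males at 0.5 mg/kg, and 1 was raised and 2 lowered in each sex at the top dose. Of all probes, 0.382% were raised in males at 0.5 mg/kg. At the top dose 4.21% were raised and 8.49% lowered in males, and 2.26% went each way in females. In the step from 0.5 to 5 mg/kg in males, 3 were raised and 2 lowered, where 3.16% of all probes were raised and 5.57% lowered. The median log2 fold change of the list at the top dose was -0.27 for males and -0.15 for females. The gene raised against vehicle was in each of these cases Abhd6, a monoacylglycerol lipase. At the top dose its log2 fold change was 1.72 in males and 1.73 in females, on the probe with the smallest adjusted p. Baat, which joins bile acids to taurine or glycine, was lowered in both, with log2 changes of -0.90 (males) and -0.87 (females). Acnat1 was lowered in males and Ppt1, the lysosomal palmitoyl-protein thioesterase, in females. Abhd6 and Acnat1 were named after their values were seen.

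The acyl-CoA synthetases, which catalyse the opposite reaction, moved both ways. Of 18 tested, males of the top dose had 8 raised and 4 lowered, and females 5 and 1. A gene counted here if any of its probes passed. Over all probes tested, 4.21% were raised and 8.49% lowered in males at this dose, and 2.26% went each way in females. Acsl1, the main long-chain synthetase of liver, rose by 1.34 in males and 1.12 in females on the log2 scale, and Acsl5 by 1.41 and 0.87. Slc27a5, a bile acid and fatty acid CoA ligase, was lowered, by -0.97 among males and -0.71 among females.

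At 5 mg/kg, 4.21% of all probes were raised in males and 2.26% in females. Of 13 genes for CoA synthesis and breakdown, 1 was raised at this dose in each sex. It was Vnn1, a pantetheinase, named after its values were seen, whose log2 fold change was 6.88 for males and 4.71 for females, from 0.285 and 1.27 CPM in controls. Of 11 genes for peroxisomal import and handling of long chains, 4 were raised in males and 5 in females, among them Abcd3, a transporter of the peroxisomal membrane, at 1.55 and 1.62.

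Of 27 known PPARα targets outside the thioesterases, males had 17 raised at the middle dose and 25 at the top, and females 9 and 24, with none lowered in these comparisons. Of all probes, 0.382% and 4.21% were raised in males at these doses, and 0.108% and 2.26% in females. At the top dose the list's median log2 fold change was 1.66 among males and 1.77 among females. Fabp1, the liver fatty acid binding protein, rose by 1.65 (males) and 1.77 (females) on the log2 scale. Acot1 and Acot2 at 5 mg/kg had larger fitted values than these medians in both sexes. The median of the 11 member probes was 2.169 in males and 0.61 in females. It counts Acot1, Acot3 and Acot9 on both of their probes, while the list's median takes only the probe with most counts of each gene. These medians are therefore not set against each other. The differences of Acot1 and Acot2 from the list's medians were not tested.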

How the data were processed

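Liver RNA of 37 mice was read by TempO-Seq, in which pairs of probes are ligated on their transcript, amplified and sequenced. The authors scraped fixed sections, sequenced the products and counted reads on each probe, and deposited the raw counts without normalization, after removing 3 of 40 mice. The submitters' processing notes name bcl2fastq 2.17.1.14 and Bowtie. The genome build is not given in the sources used here. Mice were grouped by the labels for sex and dose. All columns were used.

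Probes were kept with edgeR's filterByExpr over 8 groups (18570 of 30146), normalized by TMM and fitted in 1 quasi-likelihood model of all mice with a mean per group, in edgeR 4.0.16 (R 4.3.3). The 10 contrasts were tested by glmQLFTest, with Benjamini-Hochberg adjustment over all probes of each and a threshold of 0.10. A gene was called where at least 1 probe passed. Fits were tested on simulated counts, where many changed probes of low count were not recovered. The pass mark of that test was set anew after the first run missed it, with the simulation unchanged. Intervals are for 95%. Figures use log2(CPM + 1).

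The genes named were every member by its probe with most counts, the 3 genes nearest to each member raised in both sexes at 5 mg/kg, and up to 4 genes of highest counts in each of 5 lists, and 1 gene under this rule is not reported here. The members and lists were chosen with earlier results of these data known. The alternatives were DESeq2 1.42.0 in each sex, its size factors in edgeR, a robust fit, separate fits per sex, summed probes per gene, no low-count filter or one at 10 mean counts, totals thinned to the smallest, the 4 shallowest mice dropped, a 0.05 threshold, and single mice dropped in turn. Sequence and positions came from GENCODE mouse release 21 and RefSeq.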

Additional observations from a re-analysis of the deposited data

Results flagged for a closer look

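In 64 groups of 4 or 5 mice, 6 held a mouse far from the others by Dixon's test. Chance gives this in about 1 of 20 groups where values are normally distributed. That was not tested for these CPM, some of which are at 0, so the rate expected here is not known. Acot1 in males at 0.5 mg/kg was 351 CPM in 1 mouse and 83.5 to 150 CPM in the others. Acot3 in control males was 8.05 CPM in 1 mouse and 0.134 to 2.34 CPM in the others. Acot4 in males at 0.5 mg/kg was 10.1 CPM in 1 mouse and 0 to 2.05 CPM in the others. Acot9 in males at 5 mg/kg was 2.94 CPM in 1 mouse and 0 to 0.236 CPM in the others. Acot12 in females at 5 mg/kg was 235 CPM in 1 mouse and 294 to 298 CPM in the others. Acot13 in females at 0.1 mg/kg was 91.4 CPM in 1 mouse and 62.0 to 69.7 CPM in the others.

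The response of Acot3 at 5 mg/kg differed between the sexes in the test of the interaction, by -3.87 on the log2 scale on its first probe (adjusted p = 0.040) and -5.65 on its second (adjusted p = 0.011), females minus males.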

How the results depend on the processing

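In females at 0.5 mg/kg, in the sex difference of the top dose and for both sexes at 0.1 mg/kg, the number of member genes called was the same in every setting and in every fit without 1 mouse. In females at 0.5 mg/kg the first probe of Acot1 lost its call with a robust fit (adjusted p = 0.107, from edgeR), and the gene was called on its second probe. In males at 0.5 mg/kg, 3 genes became 1 with each sex fitted apart and with a robust fit, and 1 to 3 without 1 mouse. In males at 5 mg/kg, 4 genes were called in 9 of 10 settings and 5 with DESeq2's size factors, which added Acot12, and 4 to 5 without 1 mouse. For the step from 0.5 to 5 mg/kg in males, 4 genes became 2 with each sex fitted apart and 2 to 4 without 1 mouse, and in females 2 genes became 3 there. In females at 5 mg/kg, 2 genes became 4 with DESeq2 in each sex, which added Acot4 and Acot12, and remained 2 in every fit without 1 mouse. Between controls, 2 genes became 1 at a threshold of 0.05, and 1 to 2 without 1 mouse, with Acot13 lost. The cause was not tested.

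Some uncalled values changed sign. Most were near 0, but Acot4 in males at 0.5 mg/kg (0.94) and Acot9 in males at 5 mg/kg (0.76) were not, and each turned negative without 1 mouse. Acot3 in females at 0.5 mg/kg became -0.000489 in thinned counts, and Acot9 in females at 5 mg/kg became -0.052 with probes summed. Without 1 mouse, log2 fold changes in males at 0.1 mg/kg ranged from -0.12 to 1.15 for Acot2, -0.15 to 0.73 for Acot4 and -0.088 to 0.30 for Acot7. In females at 0.1 mg/kg they ranged from -0.29 to 0.21 for Acot4, -0.068 to 0.057 for Acot12 and -0.032 to 0.12 for Acot13. Those of Acot3 and Acot9 in females at 0.5 mg/kg ranged from -0.20 to 0.42 and -0.13 to 0.33, that of Acot9 in females at 5 mg/kg from -0.18 to 0.43, that of Acot4 in males at 0.5 mg/kg from -0.53 to 1.503 and that of Acot9 in males at 5 mg/kg from -2.56 to 1.53. Acot4, Acot5, Acot8 and Acot9 had few counts, and whether depth, the probe or low expression lay behind this was not tested. No paired analysis was possible because the replicate numbers only follow accession order and tie no mouse of one group to a mouse of another.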
